A study of Arabidopsis thaliana with 6 samples.

Results

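PRA1 (prenylated Rab acceptor) genes encode small membrane proteins of the secretory pathway. The account below covers 8 of them, taken as the probe sets that name only PRA1.B6 (AT5G07110), PRA8 (AT3G13720), PRA1.B4 (AT2G38360), PRA7 (AT1G55190), PRA1.A1 (AT5G02040), PRA1.H (AT4G27540), PRA1.F1 (AT1G17700) or PRA1.G1 (AT1G55640). Each of the 8 had 1 probe set, out of 22746 probe sets tested. On this type of array several short probes for the same transcript are combined to give the value of a probe set. Of the 19 genes listed here for the family, 3 more have a probe set of their own (PRA1.B1, PRA1.E and PRA1.G2), 1 (PRA1.F4) is named only together with another gene, and 7 are named by no probe set in the annotation used here.

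The arrays measured messenger RNA of whole Arabidopsis thaliana rosettes, accession Col-0, in 3 groups of 2 biological replicates. GA plants were sprayed every other day with 1 mL of 50 µM of the gibberellin GA3, PBZ plants were watered 14 days after sowing with 10 mL of paclobutrazol at 50 mg/L (0.5 mg per pot), and control plants had neither. A mock spray is not described for the PBZ or control plants. All groups carried the transgene 35S:HF-RPL18B, a tagged ribosomal protein behind a viral promoter that is active in most plant cells, and grew on soil with 16 h of light and 8 h of dark. Harvest is given as day 27 in the sample titles and day 25 in another label. The labels name total RNA as the molecule, while their protocol also describes RNA bound to the tagged ribosomes.

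Prenylated Rab acceptors take their name from work in mammals and yeast, where they bind Rab GTPases, the switches that direct membrane vesicles, and help to release them from their carrier protein GDI onto membranes. In Arabidopsis the family is large and its proteins lie in the endoplasmic reticulum, the Golgi and endosomes. Paclobutrazol blocks gibberellin synthesis, so GA and PBZ rosettes stand for high and low supply of a hormone that promotes cell expansion, a process that depends on delivery of wall and membrane material.

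The arrays were alike in brightness, with median intensities of 32.4 to 33.9, and within-group Pearson correlations over all probe sets were 0.981 to 0.988 (between groups 0.967 to 0.986). Precision is limited by having only 2 arrays in each group. The rosette leaf markers with a probe set of their own (RCA and LHCB4.2, 2 of 14 listed) were bright, with summed intensities from 6886 to 8173 per array. The 2 of 7 root markers (EXPA7 and EXPA18) summed to between 12.4 and 27.8. The flower (9) and seed (4) markers had no probe set of their own in the annotation used here. Of 4 measured genes that respond to gibberellin supply, 3 passed the test in GA against PBZ: the expansin gene EXPA8 was higher (log2 fold change 2.39, limma adjusted p = 0.00917), and the gibberellin receptor genes GID1B and GID1A were lower (-1.79 and -1.04, adjusted p = 0.0156 and 0.0182). EXPA8 alone of the 4 passed in PBZ against control (-3.06, adjusted p = 0.00935). In GA against control 0 of 4 passed, and EXPA8 had an unadjusted p under 0.05 with its GA arrays below control (-0.67, adjusted p = 0.423), although it was higher in GA than in PBZ. Each of these calls kept its sign under 18 alternatives but not always its side of the threshold. Alternatives that alter only the spread, the probe sets tested, the threshold or the group not compared cannot change a sign. EXPA8 in PBZ against control passed in 9 of 18 and was lost without any single array. In GA against PBZ EXPA8 passed in 14, GID1B in 12 and GID1A in 10.

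The 8 genes were chosen by family name after the intensities and fold changes of these same arrays, in all 3 comparisons, had been seen. Their values are therefore given as a description. Counts of passing genes stand beside the share of all probe sets that passed, and nothing is read from them. Intensities are linear as the authors deposited them, and their trimmed means were alike in all arrays (99.1 to 99.2). Fold changes are differences of log2(intensity + 10), with a standard error (SE) from limma over all 6 arrays, and a probe set passed where limma's Benjamini-Hochberg adjusted p over all 22746 probe sets was under 0.05. Brightness depends on the probes, so levels of the PRA1 genes are compared between groups of arrays and not from gene to gene. The marker sums above carry the same limit. In whole rosettes, fewer cells of a type and less RNA per cell cannot be told apart.

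**Figure D1:**
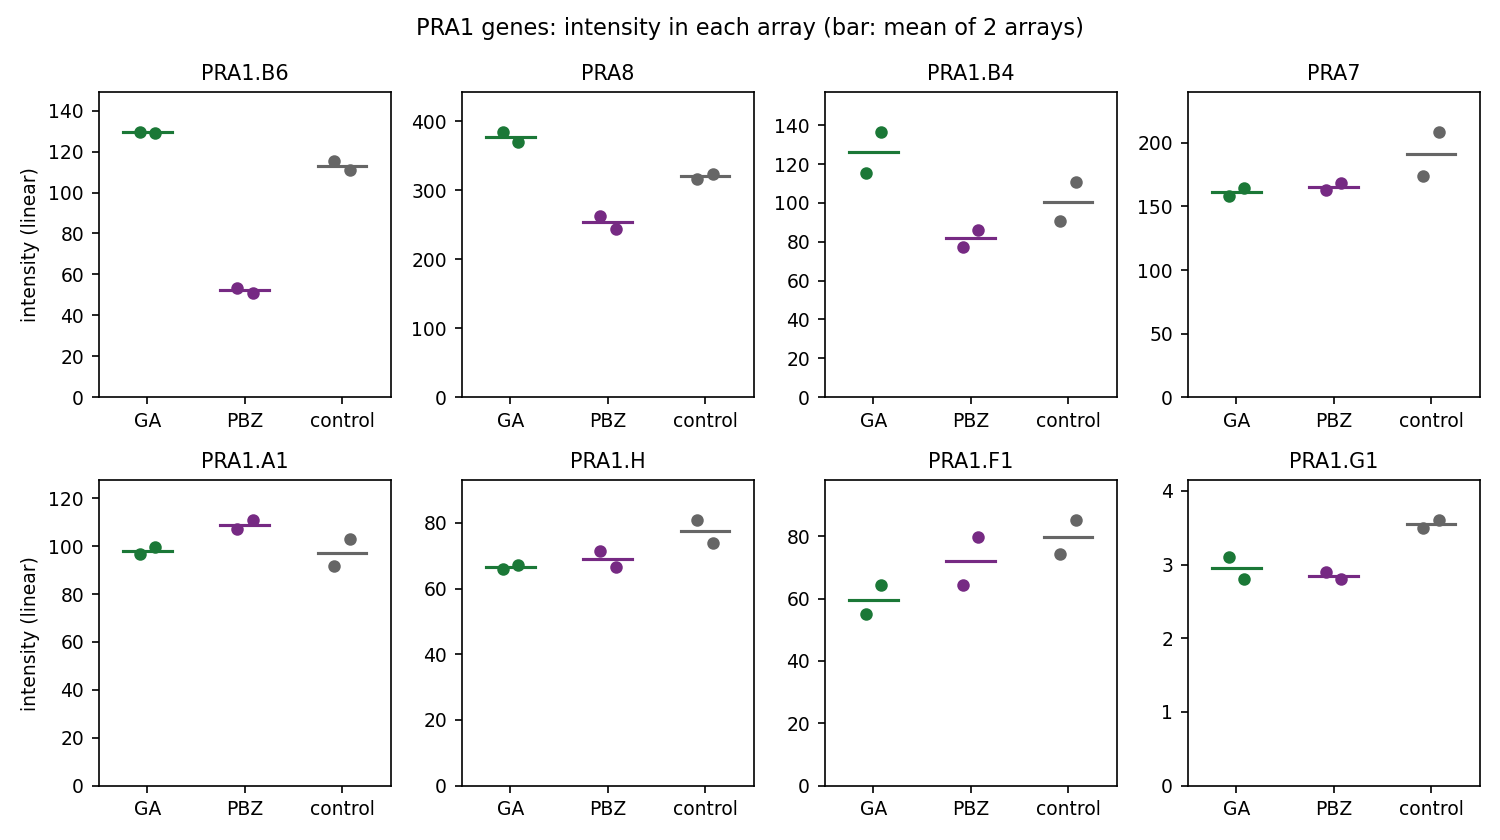
Linear intensity (vertical axes, each from 0) of the 8 PRA1 genes in the 2 arrays of each group (points) with their mean (bars). PRA1.B6 lies at 50.8 and 53.6 in PBZ arrays and above 110 in the other arrays, and PRA1.G1 lies under 4 in every array.

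PRA1.B6 had the largest difference among the 8. In Arabidopsis its protein is known as a negative regulator of transport from the endoplasmic reticulum to the Golgi. Its intensity was 129.7 and 129.1 in GA rosettes, 53.6 and 50.8 in PBZ rosettes, and 115.2 and 111.2 in control rosettes. Both PBZ arrays lay at under 50% of every GA array and under 50% of every control array, and the 3 groups did not overlap. The order was therefore GA, then control, then PBZ, with a narrow gap between GA and control and a wide one down to PBZ.

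The PRA1.B6 mean was 52.2 ± 1.98 in PBZ and 113 ± 2.83 in control (SD, n = 2 each), so control was 2.17 times as bright (log2 fold change PBZ minus control -0.99, SE 0.12). The GA mean was 129 ± 0.42 (SD, n = 2), 2.48 times the PBZ mean (log2 fold change GA minus PBZ 1.16, SE 0.12) and 1.14 times the control mean (GA minus control 0.18, SE 0.12). That GA minus control difference is less than 2 times its SE, so GA above control is an order of these arrays only. The 2 larger comparisons share the PBZ arrays, so they are not independent of each other. Replicates of a group differed by at most 0.06 on the log2 scale, far less than either difference that involves PBZ.

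Of the 8 genes, PRA1.B6 was the 1 that passed in PBZ against control, where 0.514% of all probe sets passed (0.281% lower), and the 1 that passed in GA against PBZ, where 2.97% did (1.96% higher). The PBZ against control call ended without any single one of the 6 arrays. The GA against PBZ call ended without either GA array or either PBZ array. Leaving out such an array ended most calls over all probe sets, so these losses are not particular to PRA1.B6. Both calls ended with a pseudocount of 1 (limma adjusted p of 0.115 and 0.0556). The PBZ against control call also ended in the fit of those 2 groups alone (0.125) and without cross-hybridising, several-gene and unnamed probe sets (0.0644). It ended too with the replicate number as a block (0.0848) and with a minimum log2 fold change of 1. PRA1.B6 passed in 7 of 18 alternatives in PBZ against control and in 13 of 18 in GA against PBZ. Several of the 18 alternatives cannot move a fold change, as they alter only the spread, the probe sets tested, the threshold or the group not compared. Over all 18 the sign of each PRA1.B6 difference was kept. Its log2 fold changes ran from -1.12 to -0.79 for PBZ minus control and from 0.94 to 1.31 for GA minus PBZ. A change of at least that size in either direction was seen for 304 probe sets (1.34%) in PBZ against control, 138 of them lower, and for 414 probe sets (1.82%) in GA against PBZ, 289 of them higher. PRA1.B6 thus lay in the outer part of both distributions without being at their edge.

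**Figure D2:**
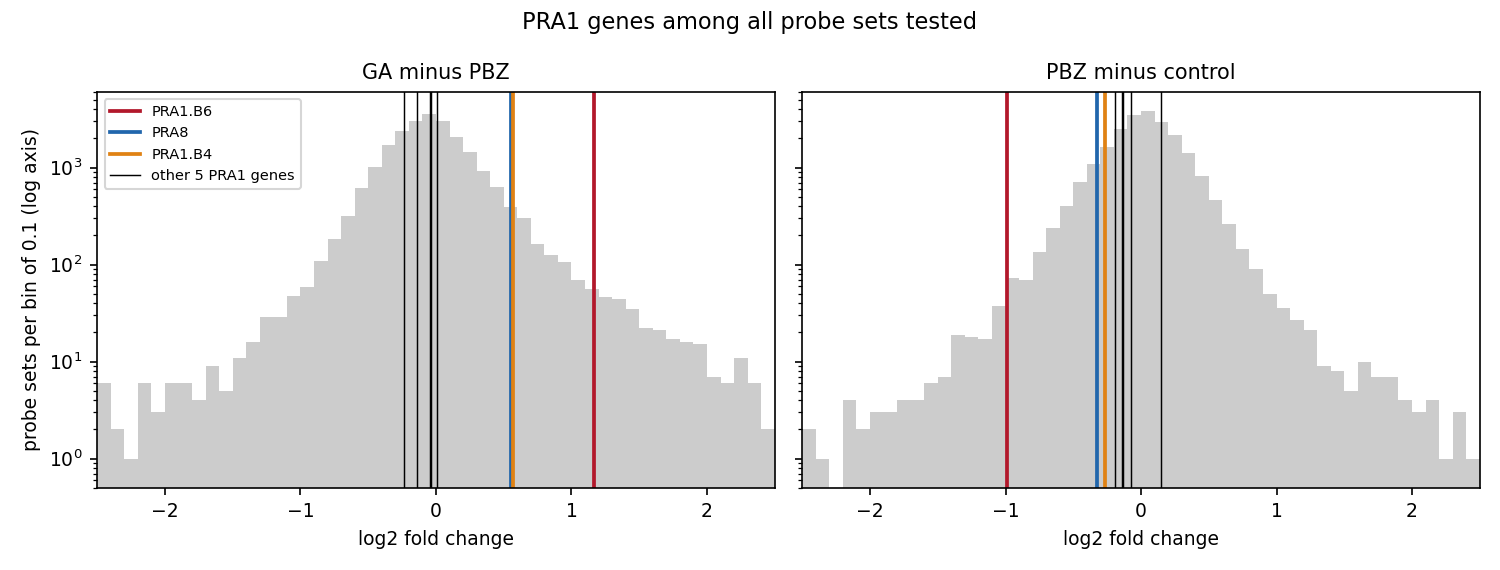
Log2 fold change (horizontal axis, drawn from -2.5 to 2.5, with values beyond left off) of the probe sets tested as a histogram (grey, log vertical axis) with the 8 PRA1 genes as lines, for GA minus PBZ and PBZ minus control. PRA1.B6 is at 1.16 and -0.99, PRA8 at 0.56 and -0.33, PRA1.B4 at 0.56 and -0.27, and the other 5 lie within 0.24 of 0.

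PRA1.B4, of the same B subfamily, had the same order of groups with smaller differences. Its intensity was 115.4 and 136.6 in GA rosettes, 77.5 and 86.0 in PBZ rosettes, and 90.6 and 110.6 in control rosettes. The groups did not overlap, but neighbours in the order were close: the lower control array stood just above the upper PBZ array, and the lower GA array just above the upper control array. The log2 fold changes were 0.56 (SE 0.15) for GA minus PBZ, -0.27 (SE 0.15) for PBZ minus control and 0.30 (SE 0.15) for GA minus control. Those against control are less than 2 times their SE, and they depend on which control array is used. Without 1 control array PRA1.B4 ran from -0.40 to -0.13 in PBZ minus control and from 0.17 to 0.43 in GA minus control.

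The F subfamily has 3 members here, PRA8 (also PRA1.F3), PRA7 (PRA1.F2) and PRA1.F1. PRA8 followed the order of PRA1.B6, and the other 2 did not. PRA8 had 385.0 and 369.6 in GA rosettes, 262.6 and 244.5 in PBZ rosettes, and 316.4 and 324.3 in control rosettes. Every GA array was above every control array, and every control array above every PBZ array. The GA mean of 377 ± 10.9 was 1.49 times the PBZ mean of 254 ± 12.8, with control at 320 ± 5.59 between them (SD, n = 2 each). The log2 fold changes of PRA8 were 0.56 (SE 0.12) for GA minus PBZ, -0.33 (SE 0.12) for PBZ minus control and 0.23 (SE 0.12) for GA minus control, the last again less than 2 times its SE. PRA8 did not pass in GA against PBZ, but did under 4 alternatives (pseudocount of 32, floor of 10, intensity trend and without dim probe sets).

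PRA7 had 157.9 and 164.3 in GA rosettes, 162.8 and 168.5 in PBZ rosettes, and 174.2 and 208.7 in control rosettes. Both treated groups lay below control and overlapped each other, and the control arrays were the ones far apart. Its log2 fold changes were -0.04 (GA minus PBZ), -0.19 (PBZ minus control) and -0.23 (GA minus control), each with an SE of 0.13. PRA1.F1 had 54.9 and 64.2 in GA rosettes, 64.2 and 79.9 in PBZ rosettes, and 74.3 and 85.1 in control rosettes. Its GA arrays were below its control arrays, while the PBZ arrays overlapped control and met GA at 64.2. GA minus control was -0.37 (SE 0.16) for PRA1.F1, the lowest of the 8 in that comparison, and opposite in sign to that of PRA8.

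In RefSeq gene order PRA1.F4, AT3G13700 and PRA8 are consecutive on chromosome 3, so PRA8 has a family member as a close neighbour. The RefSeq table is of assembly TAIR10.1, and no coordinates are given because the build behind the array design is not named.

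The other 3 members, of the A, G and H subfamilies, showed small differences. PRA1.A1 had 96.6 and 99.5 in GA rosettes, 107.2 and 110.8 in PBZ rosettes, and 91.6 and 103.0 in control rosettes. It was the 1 member of 8 whose PBZ arrays were above control (log2 fold change 0.15, SE 0.12), and its GA and control arrays overlapped (0.01, SE 0.12). PRA1.H had 66.0 and 67.1 in GA rosettes, 71.5 and 66.7 in PBZ rosettes, and 80.8 and 74.0 in control rosettes. Both treated groups were below control, by 0.19 and 0.14 on the log2 scale (SE 0.12 each), and overlapped each other.

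PRA1.G1 was dim in every array, with 3.1 and 2.8 in GA rosettes, 2.9 and 2.8 in PBZ rosettes, and 3.5 and 3.6 in control rosettes. Between 26.8% and 29.4% of all values per array lay under 10, and those of PRA1.G1 are among them. No detection call came with the intensities, so whether this gene was expressed was not settled. The size of its fold changes (-0.08 to 0.01) is held small by the pseudocount of 10, and with a pseudocount of 1 its PBZ minus control value was -0.24.

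**Figure D3:**
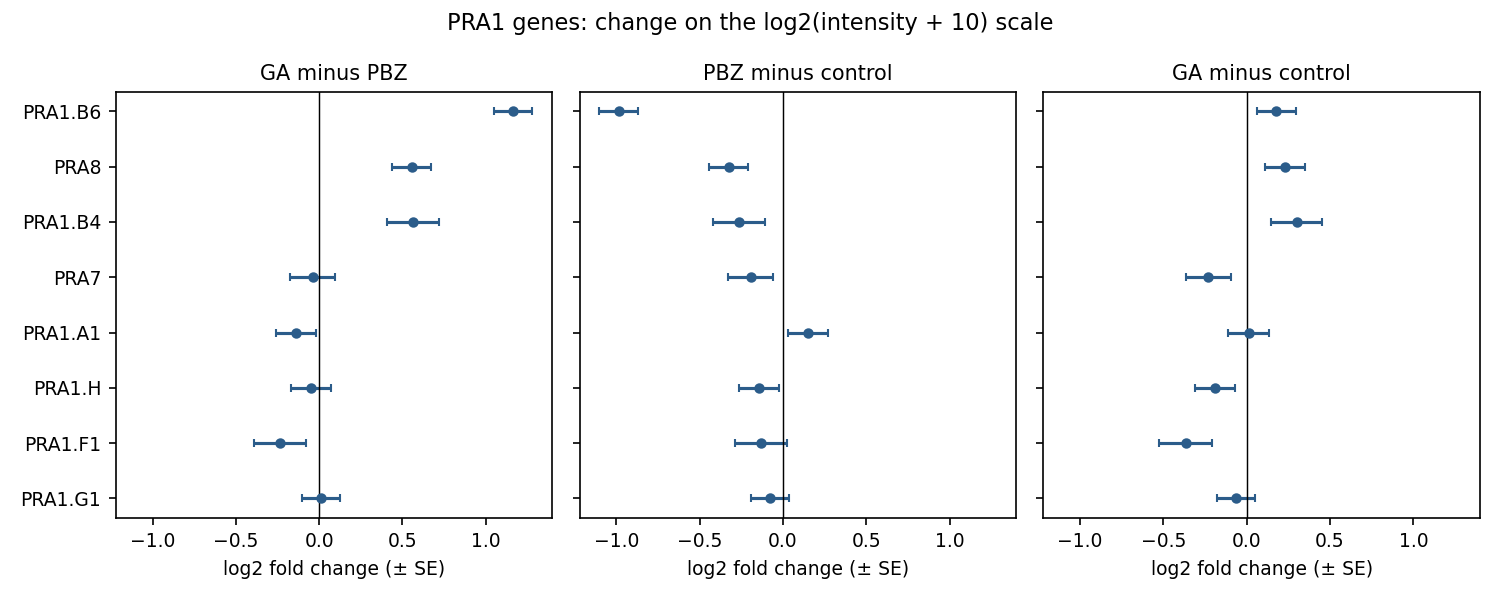
Log2 fold change on the log2(intensity + 10) scale (horizontal axes, points) with its SE (bars) for the 8 PRA1 genes (rows) in the 3 comparisons. PRA1.B6, PRA8 and PRA1.B4 lie right of 0 in GA minus PBZ and left of 0 in PBZ minus control.

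In all, 3 of the 8 genes (PRA1.B6, PRA8 and PRA1.B4) had both GA arrays above both control arrays and those above both PBZ arrays, a pattern held by 3.32% of all probe sets. In PBZ against control, 6 of 8 had both PBZ arrays below both control arrays (18.5% of all probe sets) and 1 had both above (23.2%). PRA1.G1, under 4 in every array, is 1 of the 6, and whether it was expressed was not settled. Among the 6, the differences of PRA1.B4, PRA7, PRA1.H and PRA1.G1 were less than 2 times their SE. In GA against control, 3 of 8 were higher and 4 lower without overlap (16.8% and 22.2% of all probe sets), and 0 passed by limma, as did 0% of all probe sets. PRA1.G1 is again among the 4 lower. An unadjusted p under 0.05 was held by 2 of the 8 in PBZ against control (13.7% of all probe sets), 0 in GA against control (8.49%) and 3 in GA against PBZ (18%). In GA against PBZ, 3 were higher and 1 lower without overlap (19.1% and 28.3%). The median log2 fold change of the 8 was -0.17 in PBZ minus control, -0.03 in GA minus control and -0.01 in GA minus PBZ, where the medians of all probe sets were 0.03, -0.02 and -0.05.

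Relative to the control mean of each gene, PRA1.B6 stood at -0.95 and -1.02 in the 2 PBZ arrays. The other 7 ran from -0.33 to 0.13 in the first PBZ array and from -0.38 to 0.17 in the second. PRA1.B6 was thus outside the range of the other members in both PBZ arrays. In the GA arrays PRA1.B6 stood at 0.18 in both, inside the range of the other 7 (-0.46 to 0.26 and -0.27 to 0.41). Over the 6 arrays, Pearson's r of log2 intensity with PRA1.B6 was 0.95 for PRA8, 0.81 for PRA1.B4 and -0.82 for PRA1.A1. These correlations describe 6 arrays that fall into 3 groups and share their scaling, and they carry no test.

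The 5 genes with a symbol of their own whose pattern over the 6 arrays was most like PRA1.B6, among 902 whose log2 values ranged by at least 0.5, were WSD1, MSRB6, iqd21, BZIP61 and THI2.2, with r from 0.989 to 0.999. WSD1 encodes a wax ester synthase, MSRB6 a methionine sulfoxide reductase, iqd21 a calmodulin-binding IQD protein, BZIP61 a bZIP transcription factor and THI2.2 a thionin. None of the 5 is a PRA1 gene. Among the 5, iqd21 (AT3G49260) was nearest to PRA1.B6 in the size of its drop in PBZ minus control (-0.86, against -0.99). Its intensities were 166.5 and 155.6 in GA, 78.8 and 79.7 in PBZ, and 152.8 and 151.1 in control rosettes. MSRB6 (AT4G04840) had a larger drop, with 504.1 and 504.8 in GA, 103.5 and 104.0 in PBZ, and 464.8 and 448.3 in control rosettes. The choice by r fixes the shape of the 5 patterns but not their size, and GA minus control was 0.08 for iqd21 and 0.96 for BZIP61 on the log2 scale.

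**Figure D4:**
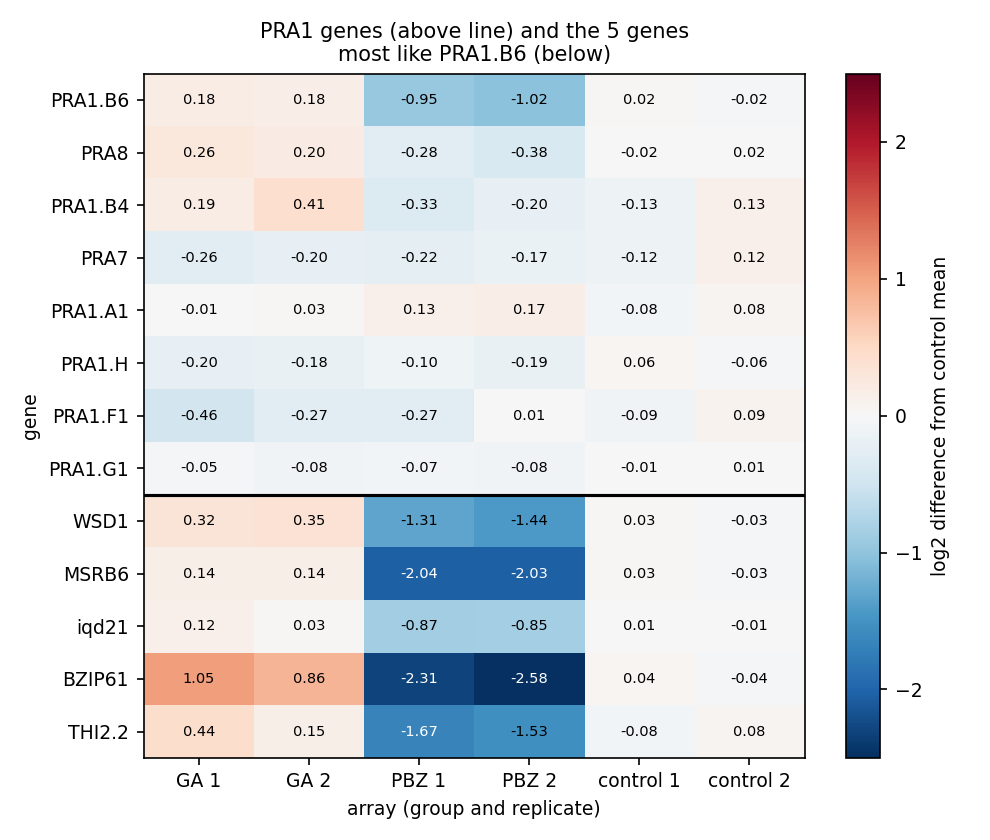
Log2 difference of each array (columns) from the control mean of the same gene, as colour and printed value, for the 8 PRA1 genes (above the line) and the 5 genes most like PRA1.B6 (below it). PRA1.B6 stands at -0.95 and -1.02 in PBZ arrays, where the other 7 PRA1 genes lie between -0.38 and 0.17.

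The 3 family genes outside the 8 that have a probe set of their own did not pass in any comparison (limma adjusted p of 0.278 or higher) and had no unadjusted p under 0.05. PRA1.G2 (AT5G56230) had 36.0 and 43.6 in GA rosettes, 26.9 and 24.5 in PBZ rosettes, and 22.7 and 36.4 in control rosettes. Its GA arrays were above its PBZ arrays (log2 fold change 0.48, SE 0.20, limma adjusted p = 0.278), while the control arrays were far apart and spanned the PBZ values. PRA1.B1 (AT3G56110) had 190.0 and 213.7 in GA rosettes, 202.5 and 261.0 in PBZ rosettes, and 241.8 and 249.4 in control rosettes. It was lower in GA than in control without overlap (-0.27, SE 0.16, adjusted p = 0.735), opposite in sign to PRA1.B6 and PRA1.B4 of the same subfamily. Each of these GA minus control differences was less than 2 times its SE, so no split within the subfamily is read from the signs. PRA1.E (AT1G08770) had 140.3 and 104.4 in GA rosettes, 96.5 and 140.3 in PBZ rosettes, and 126.8 and 130.6 in control rosettes, so that all groups overlapped.

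The partners of PRA1 proteins and the vesicle machinery around them were sparsely named by the annotation used here. It names no gene for 8730 of the 22746 probe sets, so a gene without a named probe set may still have probes on the array. Of the listed genes with a probe set of their own, 3 of 57 were Rab GTPases, 5 of 55 were SNAREs, which fuse vesicles with their targets, and 25 of 35 were subunits of the COPII and COPI coats, which form vesicles between the endoplasmic reticulum and the Golgi. The list of GDI and Rab prenylation genes (11) had none. With the 3 family genes above these make 36 genes. By limma 0 of 36 passed in PBZ against control (0.514% of all probe sets), in GA against control (0%) or in GA against PBZ (2.97%). A count of 0 among 36 is near those shares, so nothing is read from it. At an unadjusted p under 0.05, 2 coat genes were higher and 1 lower in PBZ against control, where 13.7% of all probe sets had such a p. The count was 0 in the other comparisons and lists (8.49% of all probe sets in GA against control and 18% in GA against PBZ). Over the 36 genes, the counts of 0 in those 2 comparisons lie below these shares, and the difference was not tested.

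The Rab gene RAB6A had means of 279 in GA, 289 in PBZ and 283 in control rosettes, and its log2 fold changes were within 0.06 of 0. ARA6, a plant-type Rab GTPase of endosomes, had 226.4 and 283.2 in GA rosettes, 292.7 and 305.4 in PBZ rosettes, and 277.7 and 276.1 in control rosettes. Its PBZ arrays were above control (0.11, SE 0.14, adjusted p = 0.808) and above GA (GA minus PBZ -0.23, SE 0.14, adjusted p = 0.475), while its GA arrays overlapped control. The Rab gene AT5G59840 had log2 fold changes of 0.07 to 0.21 in the 3 comparisons (adjusted p of 0.710 or higher).

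The SNARE gene SEC22, which acts between the endoplasmic reticulum and the Golgi, had 388.1 and 383.0 in GA rosettes, 313.8 and 348.6 in PBZ rosettes, and 360.3 and 376.5 in control rosettes. Its 3 groups were ordered like those of PRA1.B6 without overlap, by small steps (GA minus PBZ 0.22, SE 0.12, adjusted p = 0.426; PBZ minus control -0.15, SE 0.12, adjusted p = 0.651). ATYKT62 had intensities of 1.0 to 10.6 and gave no order, and AT4G14600 and AT1G29060 had overlapping groups in GA against control (0.27 and 0.24, adjusted p = 0.815 and 0.869).

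Among the coat genes, AT2G21390 had 260.1 and 261.8 in GA rosettes, 300.0 and 283.1 in PBZ rosettes, and 231.0 and 230.8 in control rosettes (PBZ minus control 0.32, SE 0.12, adjusted p = 0.304). AT1G79990 had 148.0 and 140.0 in GA rosettes, 109.1 and 124.3 in PBZ rosettes, and 153.0 and 149.6 in control rosettes (PBZ minus control -0.35, SE 0.13, adjusted p = 0.306; GA minus PBZ 0.28, adjusted p = 0.311). These 2 coat genes stood on opposite sides of control in PBZ rosettes. The remaining coat gene with an unadjusted limma p under 0.05 in PBZ against control was AT1G18830 (0.61, SE 0.22, adjusted p = 0.312). It was dim, with means of 9.75 in PBZ and 2.7 in control rosettes, both under the pseudocount of 10. AT4G01810 and AT3G15980 were above control in GA (0.39 and 0.23, adjusted p = 0.598 and 0.686), and AT3G63460 was higher in GA than in PBZ (0.24, adjusted p = 0.423). The median log2 fold change of the 25 coat genes was 0.04 in PBZ minus control, 0.02 in GA minus control and -0.03 in GA minus PBZ.

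**Figure D5:**
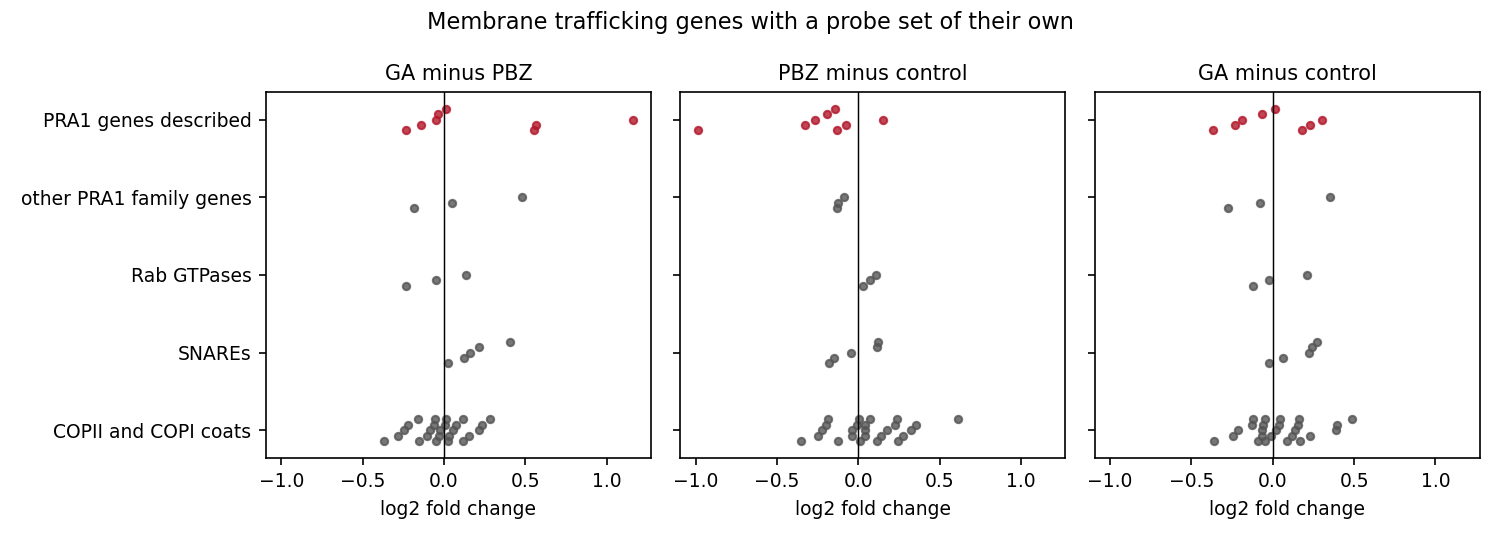
Log2 fold change (horizontal axes) of each measured gene of the 4 trafficking lists (grey points) and of the 8 PRA1 genes (red points) in the 3 comparisons; vertical jitter within a row has no meaning. PRA1.B6 is the point at 1.16, -0.99 and 0.18, and the list genes lie between -0.37 and 0.61.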

How the data were processed

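The data were 6 arrays of whole rosettes, grouped by the sample titles. The authors deposited 1 table of linear intensity per probe set and array; per the submitters' processing notes RMA and the affy package were used, but RMA gives log2 values, so the step that made these intensities is not stated in the labels. Their mean after trimming 2% at each end was 99.1 to 99.2 in every array. The 64 control probe sets were left out. The platform annotation names 1 gene for 13513 probe sets, several for 503 and none for 8730; symbols were updated through RefSeq for 13436.

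Tests used R 4.3.3 and limma 3.58.1 on log2(intensity + 10): 1 fit with a mean per group (3 residual and 3.07 prior degrees of freedom), two-sided, Benjamini-Hochberg over 22746 probe sets. The pipeline was tested on simulated data. For a gene with several probe sets the brightest naming it alone was used. The PRA1 genes and the lists (written by locus from knowledge of the families) were chosen with earlier results of these data known. The text names every member, passing list genes or else the 2 with the smallest p per list and comparison, and passing gibberellin genes. It also names the 5 genes with the highest r to PRA1.B6. RAB6A and AT1G18830 were added after their values were seen. The comparison of protein and promoter sequences that had been planned was not made, and no sequence was used here. Replicates are called biological in the labels; nothing says that they came from separate sowings, so the p-values measure the spread between these samples only. Arrays with the same replicate number did not deviate together (r = 0.0147 for PBZ and control, 0.0313 for GA and control, and -0.000766 for GA and PBZ).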

Additional observations from a re-analysis of the deposited data

How the results depend on the processing

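Each alternative changed 1 choice, and 2 arrays a group limit every call. Of the 24 differences of the 8 PRA1 genes, 18 kept their sign under all alternatives run and 6 small ones did not. For PRA1.G1, under 10 in every array, the floor of 10 gave a value of 0 in every comparison, which is no reversal. In GA minus PBZ another alternative gave PRA1.G1 a value of -0.0056, against 0.011 in the fit used here. Alternatives that alter only the spread, the probe sets tested, the threshold or the group not compared cannot change a sign, and the tally includes them. The r values of the 5 genes most like PRA1.B6 ran from 0.978 to 0.999. The number of trafficking list genes past the threshold was 0 under each alternative, and so was that of PRA1 genes in GA against control. Where no probe set passed at all, as under most alternatives in GA against control, these counts could only be 0. PRA1.B6 ceased to pass in PBZ against control (0 PRA1 genes) with a pseudocount of 1, without cross-hybridising, several-gene and unnamed probe sets, in the fit of the 2 groups alone, with a minimum log2 fold change of 1 and with each array left out (0 to 0). In GA against PBZ the count of PRA1 genes was 0 with a pseudocount of 1, 2 with a pseudocount of 32, a floor of 10 or an intensity trend, 3 without the 40% dimmest probe sets (which removes PRA1.G1), and 0 to 1 with an array left out.

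Over all probe sets, the count of 117 in PBZ against control was 0 with a pseudocount of 1, 248 with 32, 562 without dim probe sets, 23 without cross-hybridising, several-gene and unnamed ones, 333 with the trend, 4 in the fit of 2 groups and 0 to 4 with an array left out. The count of 0 in GA against control was 4 with a floor of 10, 201 without dim probe sets and 51 with the trend, and 0 to 0 with an array left out. The count of 675 in GA against PBZ was 94 with a pseudocount of 1, 292 with a floor of 10, 1364 without dim probe sets, 243 without cross-hybridising, several-gene and unnamed ones, 1040 with the trend, 284 in the fit of 2 groups and 0 to 284 with an array left out. With a floor of 10 the share of calls that were higher was 58.6% in PBZ against control and 54.1% in GA against PBZ, where it was 45.3% and 65.9% with the pseudocount. The cause was not tested. With the replicate number as a block, 47, 1 and 391 probe sets passed in PBZ against control, GA against control and GA against PBZ, and PRA1 genes numbered 0, 0 and 1; the arrays share only a number, so no pairing is read from this.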

Other observations

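PRA1.F4, known in Arabidopsis for a part in transport from the Golgi to the vacuole, is named by 2 probe sets that also name its neighbour AT3G13700, so neither can be read as PRA1.F4 alone. One had intensities of 57.0 and 85.1 in GA rosettes, 65.4 and 76.9 in PBZ rosettes, and 72.0 and 77.7 in control rosettes. The other had 30.4 and 32.8 in GA rosettes, 23.1 and 30.5 in PBZ rosettes, and 34.2 and 30.4 in control rosettes. The groups overlapped in every comparison for both probe sets. PRA8, which follows AT3G13700 in gene order, had groups that did not overlap.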
